A study of Mus musculus with 24 samples.

Results

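The genes described here are 10 enteroendocrine genes, chosen by name from the 18097 targets of the array's gene table. They are the granule proteins chromogranin A (Chga) and secretogranin 1 (Chgb), the serotonin-forming enzyme gene Tph1, and the peptide hormone genes Gcg, Pyy, Insl5, Cck, Sct, Nts and Sst, listed there as CHGA, CHGB, TPH1, GCG, PYY, INSL5, CCK, SCT, NTS and SST. All 10 were on the array, and all 10 had a mean signal above the limit used for testing. Their levels were measured in total RNA from colon of C57Bl/6 mice on 24 single-colour bead arrays. There were 4 arrays of wild-type mice given vehicle, and 8 of APCMin/+ mice (here ApcMin), which carry a mutated copy of the tumour suppressor gene Apc, given the same vehicle. Another 6 arrays were of ApcMin mice given naproxen at 10 mg/kg, a non-steroidal anti-inflammatory drug, and 6 of ApcMin mice given ATB-346 at 14.5 mg/kg, a hydrogen sulfide-releasing derivative of naproxen. Gavage was once a day for 7 days from 6 weeks of age, vehicle being DMSO in carboxymethylcellulose. The mice were 14 weeks old when colon was taken, with 7 weeks gone since dosing ended, so every drug comparison is of tissue long off the drug.

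Enteroendocrine cells are scattered, rare cells of the gut epithelium that store hormones in granules and release them when they sense nutrients, microbial products or stretch. In the colon, L cells make Gcg, whose product is cut into the glucagon-like peptides, together with Pyy, a brake on gut motility and appetite, and Insl5, a relaxin-family peptide of the distal colon. Enterochromaffin cells make serotonin through Tph1, and D cells make somatostatin (Sst), which inhibits the release of other hormones. Secretin (Sct), neurotensin (Nts) and cholecystokinin (Cck) are best known from the small intestine, and the granins Chga and Chgb pack the granules of most of these cells.

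The RefSeq promoter table (GRCm38.p6) holds 300 bases for each of the 10 genes, 250 before and 50 from the listed transcript start, and 3 short motifs were looked up in them on both strands. The cyclic AMP response element TGACGTCA was found in 2 of the 10, Sst and Chgb, and in 1.8% of the table's 32851 promoters. The E-box CAGNTG, a form of the element bound by helix-loop-helix factors such as Neurog3, was in 7 of the 10 and in 51.4% of all promoters. The TATA box letters TATAAA were in 4 of the 10 and in 13.6% of all promoters, wherever they lay. Relative to the listed start they began at -24 in Gcg, -28 in Sct and 6, after the start, in Chga. On the opposite strand they began at -88 in Insl5, its only match, and at -72 in Gcg. The first pair is shown for the shared response element, the second because Sct and Insl5 differed most in opposite directions between arrays; capitals mark any match to the 3 motifs on either strand, and overlapping matches run together.
Sst, chr16:23890795-23891094, minus strand: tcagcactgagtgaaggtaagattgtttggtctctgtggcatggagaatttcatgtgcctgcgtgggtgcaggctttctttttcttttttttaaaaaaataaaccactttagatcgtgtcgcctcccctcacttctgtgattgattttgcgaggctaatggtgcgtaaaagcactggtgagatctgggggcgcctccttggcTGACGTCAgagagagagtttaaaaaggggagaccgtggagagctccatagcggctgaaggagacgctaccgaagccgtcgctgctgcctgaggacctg
Chgb, chr2:132781392-132781691, plus strand: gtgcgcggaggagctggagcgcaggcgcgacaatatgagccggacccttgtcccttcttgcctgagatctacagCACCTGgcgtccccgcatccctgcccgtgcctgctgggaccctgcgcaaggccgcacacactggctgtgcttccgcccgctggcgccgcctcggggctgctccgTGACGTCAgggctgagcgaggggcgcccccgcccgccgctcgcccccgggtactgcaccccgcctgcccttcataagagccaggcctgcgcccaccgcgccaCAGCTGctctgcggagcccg
Sct, chr7:141279084-141279383, minus strand: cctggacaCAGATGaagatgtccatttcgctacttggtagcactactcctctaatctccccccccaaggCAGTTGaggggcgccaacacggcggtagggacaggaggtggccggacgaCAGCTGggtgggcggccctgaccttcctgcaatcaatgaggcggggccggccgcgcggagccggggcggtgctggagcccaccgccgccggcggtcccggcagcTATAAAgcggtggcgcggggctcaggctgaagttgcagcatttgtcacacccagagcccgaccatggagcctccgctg
Insl5, chr4:103027222-103027521, minus strand: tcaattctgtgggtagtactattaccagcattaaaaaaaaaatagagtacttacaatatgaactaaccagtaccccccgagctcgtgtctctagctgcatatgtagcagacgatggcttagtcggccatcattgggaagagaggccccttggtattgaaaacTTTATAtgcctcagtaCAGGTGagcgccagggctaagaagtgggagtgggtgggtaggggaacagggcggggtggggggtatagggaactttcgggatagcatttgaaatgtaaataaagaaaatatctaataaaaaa
Relative to the listed start, the response element begins at position -48 in Sst and -72 in Chgb. The starts listed for Sst and Sct lie inside their RefSeq gene intervals (chr16:23889573-23891342 and chr7:141278329-141279174). These matches describe letters only, and binding was not measured.

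Signal is given as log2 of the normalised intensity, on which the lowest value of any target was 5.65. Array medians of the deposited intensity ran from 81.4 to 102.9, and normalised arrays correlated with r between 0.964 and 0.996. Among markers of colon tissue, the epithelial keratin gene Krt8 read 14.52 to 14.90 and the smooth muscle gene Actg2 14.07 to 14.80. Others varied more: the epithelial gene Cdh1 read 10.88 to 12.01 and the muscle gene Des 12.27 to 13.78. Colonocyte markers were mixed: Guca2a read 14.38 to 15.01 and the water channel gene Aqp8 7.42 to 13.01, while Slc26a3 and Ces2a were too dim to be tested. Replicate numbers 1 to 4 were present in all groups (16 arrays) and 5 to 8 in ApcMin groups alone (8 arrays), and the labels do not say what a number stands for. Of 9048 tested genes, 3290 (36.4%) differed between these sets at an adjusted p under 0.05. The pancreatic lipase gene Pnlip ran from 5.80 to 14.50, and the insulin gene Ins2 read 9.83 on vehicle array 7 and 8.37 on naproxen array 1 against at most 6.48 on the others. Wild-type array 4 stood apart from the other wild-type arrays in several of the genes described here. No label says that arrays of a group came from separate animals, so the p-values measure the spread between arrays. In bulk RNA, fewer cells of a type and less RNA per cell cannot be told apart.

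No enteroendocrine gene passed the test in any comparison of genotype or drug, while several varied widely between arrays of the same group. Insl5 ran over a 30.4-fold range across the 24 arrays, Sct over 12.4-fold and Nts over 8.91-fold. Sst varied 4.87-fold, Tph1 4.85-fold, Chgb 4.28-fold, Chga 3.80-fold and Pyy 3.56-fold. Gcg (2.61-fold) and Cck (2.57-fold) varied least of the 10. The SD within groups was 1.73 for Insl5, 1.29 for Sct and 1.08 for Nts, which placed them 26th, 58th and 78th of the 9048 tested genes, whose median SD was 0.167. Even Cck, at 0.38, lay at the 89.9th percentile. The plot of signal by group shows arrays of a group at both ends of the scale.

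**Figure D1:**
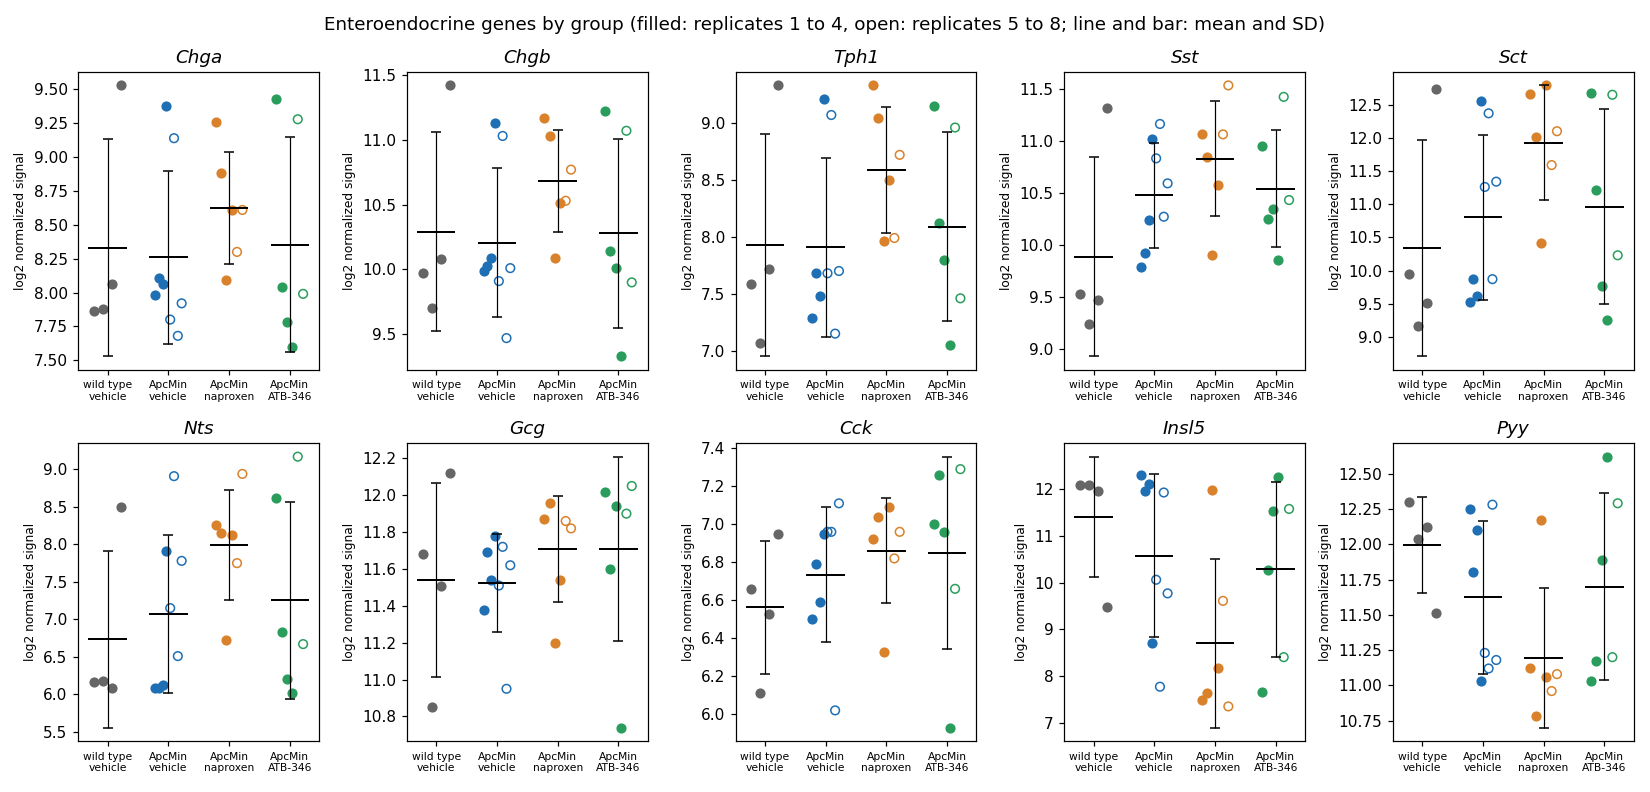
Log2 normalised signal (vertical axis, scaled per gene) of the 10 genes on each array, by group (horizontal axis: 4 wild-type, 8 vehicle, 6 naproxen and 6 ATB-346 arrays). Filled points are replicates 1 to 4, open points replicates 5 to 8, lines the group mean and bars the SD; Insl5 reaches from 7.36 to 12.29, and no gene has groups that lie apart.

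Among the L-cell hormones, Insl5 read 12.08, 12.09, 11.95 and 9.47 on the 4 wild-type arrays. Under vehicle ApcMin arrays lay between 7.78 and 12.29 with a median of 10.99. Under naproxen they lay between 7.36 and 11.97 with a median of 7.91, and under ATB-346 between 7.66 and 12.26 with a median of 10.89. All groups thus held at least 1 array under 9.5 and 1 above 11.9, and 5 of the 6 naproxen arrays were at or below 9.61. In deposited units Insl5 went from 161.7 to 5948.9.

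Pyy followed the same arrays over a narrower range. It read 12.30, 12.04, 12.12 and 11.51 in wild type, 11.03 to 12.28 (median 11.52) under vehicle, 10.78 to 12.17 (median 11.07) under naproxen and 11.03 to 12.62 (median 11.54) under ATB-346. Its highest naproxen value and the highest naproxen value of Insl5 were both on array 3. Gcg, made by L cells too, was steadier, at 11.68, 10.85, 11.51 and 12.12 in wild type, 10.95 to 11.78 (median 11.58) under vehicle, 11.20 to 11.96 (median 11.84) under naproxen and 10.74 to 12.05 (median 11.92) under ATB-346. Where Insl5 and Pyy were highest of all ATB-346 arrays, on array 4, Gcg was lowest.

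Sct, the secretin gene, ran the other way from Insl5. It read 9.95, 9.16, 9.51 and 12.74 in wild type, 9.53 to 12.56 (median 10.57) under vehicle, 10.42 to 12.79 (median 12.06) under naproxen and 9.25 to 12.67 (median 10.73) under ATB-346. Wild-type array 4 was higher than every vehicle array. Nts, the neurotensin gene, was close to the lowest signals on many arrays: it read 6.17, 6.18, 6.09 and 8.50 in wild type, 6.08 to 8.91 (median 6.83) under vehicle, 6.72 to 8.94 (median 8.14) under naproxen and 6.02 to 9.17 (median 6.75) under ATB-346. Nts has 2 probes, of which 1 stayed between 5.93 and 6.53 while the other ran from 5.97 to 10.08. The gene value combines them, so a fold from it understates what the second probe shows.

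Tph1, which makes the rate-limiting enzyme of serotonin synthesis outside the brain, read 7.59, 7.07, 7.72 and 9.33 in wild type. It lay between 7.15 and 9.21 (median 7.68) under vehicle, between 7.96 and 9.33 (median 8.61) under naproxen and between 7.05 and 9.15 (median 7.96) under ATB-346. Chga read 7.86, 7.88, 8.06 and 9.53 in wild type, and its group medians in ApcMin colon were 8.02 under vehicle, 8.61 under naproxen and 8.02 under ATB-346. All 3 Chga probes followed the gene value with r of at least 0.985. Chgb had medians of 10.02 in wild type, 10.02 under vehicle, 10.65 under naproxen and 10.07 under ATB-346. Wild-type array 4 was the highest of its group for Tph1, Chga and Chgb.

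Sst read 9.53, 9.24, 9.47 and 11.31 in wild type, 9.79 to 11.16 under vehicle, 9.90 to 11.53 under naproxen and 9.85 to 11.42 under ATB-346. Every ApcMin array was above 3 of the 4 wild-type arrays, and the fourth, array 4, was exceeded by 2 ApcMin arrays. Cck was dim, at 5.93 to 7.29 over all arrays, with group means of 6.56 in wild type, 6.73 under vehicle, 6.86 under naproxen and 6.85 under ATB-346. Its mean of 6.77 was little above the testing limit of 6.54, so small differences in Cck are poorly measured.

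The genotype comparison asked whether ApcMin colon differed from wild type under vehicle. By limma, 0 of the 10 genes and 0 of 9048 tested genes (0%) passed at an adjusted p under 0.05, and 582 genes had an unadjusted p under 0.05, none of them among the 10. Differences of the 10, ApcMin minus wild type, ran from -0.83 for Insl5 to 0.59 for Sst on the log2 scale, and 4 of 10 were above 0. The median of the 10 was -0.02 beside -0.029 over all tested genes. Insl5 differed by -0.83 ± 0.99 (SE, adjusted p = 0.818, limma) and Pyy by -0.37 ± 0.31 (adjusted p = 0.756). Sct differed by 0.46 ± 0.74 (adjusted p = 0.873) and Sst by 0.59 ± 0.36 (adjusted p = 0.738).

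These values depended on the replicate set and on wild-type array 4. All 4 wild-type arrays are replicates 1 to 4, and against the vehicle arrays of those numbers alone Insl5 differed by -0.13 ± 1.15, Pyy by -0.20 ± 0.37, Sct by 0.06 ± 0.92 and Sst by 0.35 ± 0.41 (adjusted p = 0.999 for each, limma). Without array 4 Insl5 differed by -1.47 ± 1.07 (adjusted p = 0.608, limma), Sct by 1.26 ± 0.73 (adjusted p = 0.563), and Sst by 1.06 ± 0.32 (adjusted p = 0.546). In neither fit did any of the 10 pass. For none of the 10 did the groups lie fully apart, which 0.553% of tested genes did.

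ATB-346 was set against vehicle in ApcMin colon. Again 0 of the 10 and 0 of 9048 genes (0%) passed by limma, with 632 genes at an unadjusted p under 0.05 and none of the 10 among them. The count over all genes depended on the replicate set: it was 28 with the set as a block, 16 within replicates 1 to 4 and 53 with the set and the Osr2 level as terms, with 0 of the 10 called in each. The 10 differences lay between -0.29 (Insl5) and 0.19 (Gcg), with 9 of 10 above 0 and a median of 0.108 beside 0.013 over all tested genes. Insl5 differed by -0.29 ± 0.88 with a 95% interval from -2.10 to 1.52 (adjusted p = 0.996). Its sign was not stable: it was 0.11 within replicates 5 to 8, 0.05 with the set and Osr2 level as terms, 0.57 with the set and the mean of pancreatic acinar markers, and from -0.69 to 0.23 with 1 array left out. Gcg differed by 0.19 ± 0.20 with an interval from -0.22 to 0.60 (adjusted p = 0.966). Groups overlapped for all 10, and lay apart for 0.21% of tested genes.

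Naproxen against vehicle gave the widest differences in Insl5 and Sct, in opposite directions, and neither passed. By limma 0 of the 10 and 0 of 9048 genes (0%) had an adjusted p under 0.05, and 789 genes, Insl5 alone of the 10, had an unadjusted p under 0.05. Insl5 was at 0.274 times its vehicle level, a difference of -1.87 ± 0.88 with an interval from -3.68 to -0.05 (unadjusted p = 0.044, adjusted p = 0.564), and 5 of 6 naproxen arrays were below the vehicle mean. Sct was at 2.19 times the vehicle level (1.13 ± 0.65, adjusted p = 0.62) and Nts at 1.89 times (0.92 ± 0.55, adjusted p = 0.623). Tph1 was at 1.61 times (0.69 ± 0.40, adjusted p = 0.62), with 6 of 6 naproxen arrays above the vehicle mean. The remaining differences were 0.48 ± 0.31 for Chgb, -0.43 ± 0.27 for Pyy, 0.37 ± 0.34 for Chga, 0.35 ± 0.31 for Sst, 0.19 ± 0.20 for Gcg and 0.13 ± 0.20 for Cck. The median of the 10 was 0.357 beside 0.01 over all tested genes, and groups overlapped for all 10 (0.133% of tested genes lay apart).

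Within replicates 1 to 4 the Insl5 difference was -2.45 ± 1.15, within replicates 5 to 8 it was -1.40 ± 1.26, and with the replicate set as a block it was -2.0. For Sct the within-set values were 1.58 ± 0.92 and 0.63 ± 0.78. The difference between the sets in the naproxen effect was tested as an interaction, and its adjusted p by limma was 1 for each of the 10 genes, as it was for ATB-346. Without the 2 arrays that carried Ins2 signal, Insl5 differed by -1.43, Sct by 0.85 and Tph1 by 0.43. Gcg and Sst, which pancreatic islets make too, read 10.95 and 10.27 on vehicle array 7, and 11.87 and 11.06 on naproxen array 1, all within the range of arrays of their group without Ins2 signal except Gcg on vehicle array 7, which was the lowest of its group.

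ATB-346 and naproxen, the parent drug, were given at different doses by weight, and their groups were compared directly as the only pair of related compounds. Again 0 of the 10 and 0 of 9048 genes (0%) passed by limma, with 586 genes and none of the 10 at an unadjusted p under 0.05. Insl5 differed by 1.57 ± 0.94, ATB-346 minus naproxen, with an interval from -0.36 to 3.51 (adjusted p = 0.819), and Pyy by 0.50 ± 0.29, with an interval from -0.10 to 1.11 (adjusted p = 0.811). Sct differed by -0.96 ± 0.70, with an interval from -2.41 to 0.48 (adjusted p = 0.861). Tph1 differed by -0.50 ± 0.42 and Nts by -0.74 ± 0.59. The naproxen arrays enter both this comparison and that with vehicle, so the 2 are not independent. Intervals of this width do not show that the compounds act alike. Groups overlapped for all 10 genes (0.232% of tested genes lay apart).

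**Figure D2:**
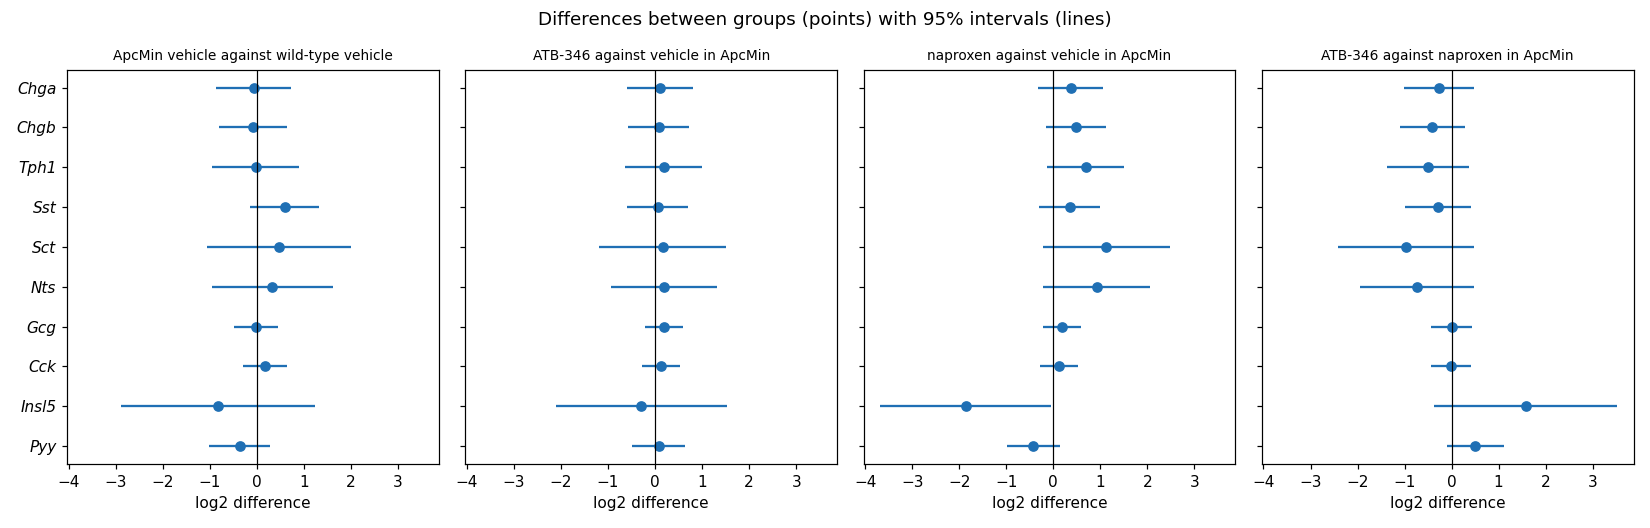
Log2 difference (horizontal axis) of the 10 genes in the 4 group comparisons, points with 95% intervals from the limma fit. The naproxen interval of Insl5, -3.68 to -0.05, is the only 1 of 40 that leaves out 0, and its adjusted p is 0.564.

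The 10 genes varied together across arrays in 2 opposed sets. Insl5 and Pyy were high on the same arrays (Pearson r = 0.90, Spearman rho = 0.84, n = 24 arrays, permutation p = 1e-05 for r). The other 8 were low on those arrays, with r against Insl5 from -0.94 for Sct and Nts to -0.58 for Gcg and Cck. All 9 relations with Insl5 had a Benjamini-Hochberg adjusted permutation p of at most 0.00333 for r and 0.00168 for rho, over 19 relations computed. Without the 2 arrays farthest from the median of Insl5, r was 0.91 for Pyy and from -0.95 to -0.56 for the rest. Gcg, an L-cell hormone gene like Insl5 and Pyy, was thus on the other side from both. Insl5 values were spread without a break wider than 1.27, between 10.26 and 11.53. Relations this strong were not limited to enteroendocrine genes. With group and replicate-set means removed, r with Insl5 was 0.94 for the goblet cell gene Rep15 and 0.91 for Aqp8, but 0.18 for Krt8. The share of all tested genes related to Insl5 as closely was not counted.

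The same signs held within the ApcMin groups and replicate sets, while the strength of single relations changed. For Cck, r with Insl5 was -0.92 on naproxen arrays, -0.25 on ATB-346 arrays and -0.27 within replicates 5 to 8. Against Insl5 the 8 genes had r from -0.98 to -0.58 over the 8 vehicle arrays, from -0.94 to -0.79 over the 6 naproxen arrays and from -0.98 to -0.25 over the 6 ATB-346 arrays. Within replicates 1 to 4 (16 arrays) r ran from -0.95 to -0.62, and within replicates 5 to 8 (8 arrays) from -0.96 to -0.27. Pyy kept an r of 0.82 to 0.93 with Insl5 in all of these. The 4 wild-type arrays are too few for a correlation: array 4 was low in Insl5 and Pyy and high in the other 8.

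Osr2, a zinc-finger transcription factor gene grouped here with genes of position along the colon, moved with the set of 8 genes and against Insl5 and Pyy. The labels give the tissue as colon and name no segment. Osr2 read 6.61, 7.24, 6.85 and 13.01 in wild type, 6.64 to 12.90 (median 9.62) under vehicle, 10.64 to 12.81 (median 12.46) under naproxen and 7.57 to 12.90 (median 9.29) under ATB-346. No naproxen array was in the low range that 3 wild-type, 3 vehicle and 2 ATB-346 arrays occupied, at or below 7.62. Hoxa13, a Hox gene expressed towards the hind end of the gut, was dim, between 6.39 and 7.42, with its median lowest under naproxen (6.49) and highest under vehicle (7.19). Hoxb13 and Hoxd13, its neighbours in that role, were too dim to be tested. Hoxd10 (7.18 to 10.05) and Hoxb6 (6.17 to 8.70) were bright enough and varied widely. With group and replicate-set means removed, r with Insl5 was -0.94 for Hoxb6, -0.62 for Hoxd10 and 0.88 for Hoxa13. The part of the Hox genes in the results was not tested. Pnlip lay above 8 on 5 vehicle and 2 naproxen arrays and on no wild-type or ATB-346 array.

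Against Osr2, r over the 24 arrays was -0.90 for Insl5 and -0.79 for Pyy. It was 0.94 for Sct and Nts, 0.87 for Tph1, 0.86 for Sst and 0.82 for Chga and Chgb, and all of these relations had an adjusted permutation p of at most 2.7e-05 for r and 0.000304 for rho. Gcg (r = 0.48, rho = 0.54, adjusted permutation p = 0.0177 and 0.00795) and Cck (r = 0.44, rho = 0.38, adjusted permutation p = 0.0326 and 0.0666) followed it less closely. The share of all tested genes related to Osr2 as closely was not counted. Without the 2 arrays farthest from the Osr2 median, r was -0.90 for Insl5, 0.94 for Sct and 0.43 for Cck. Within naproxen arrays alone (n = 6) the 8 genes had r of 0.76 to 0.92, and Insl5 and Pyy -1.0 and -0.80. Within replicates 5 to 8 the r of Cck was -0.04, and those of the other 7 were positive.

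**Figure D3:**
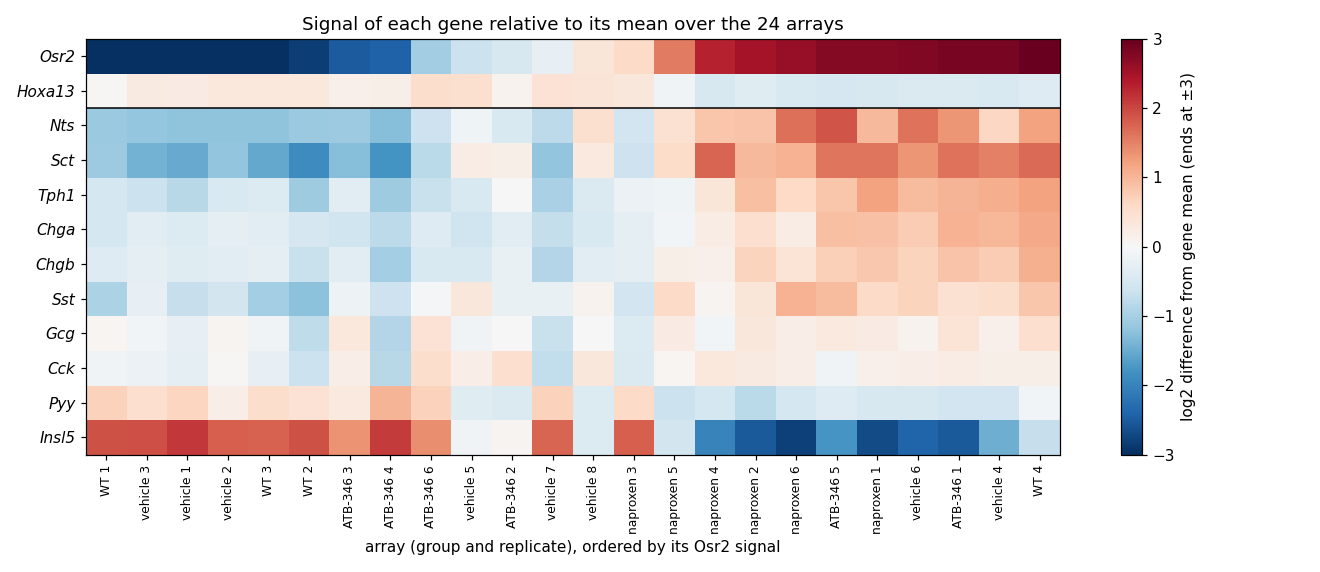
Each row is a gene and each column an array, in order of its Osr2 signal; colour is the log2 difference from the gene's mean over the 24 arrays, cut at 3 on either side. Insl5 and Pyy are high where Osr2 is low, and Nts, Sct, Tph1, Chga, Chgb and Sst are high where it is high; wild-type array 4, with Osr2 at 13.01, is at the right end.

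**Figure D4:**
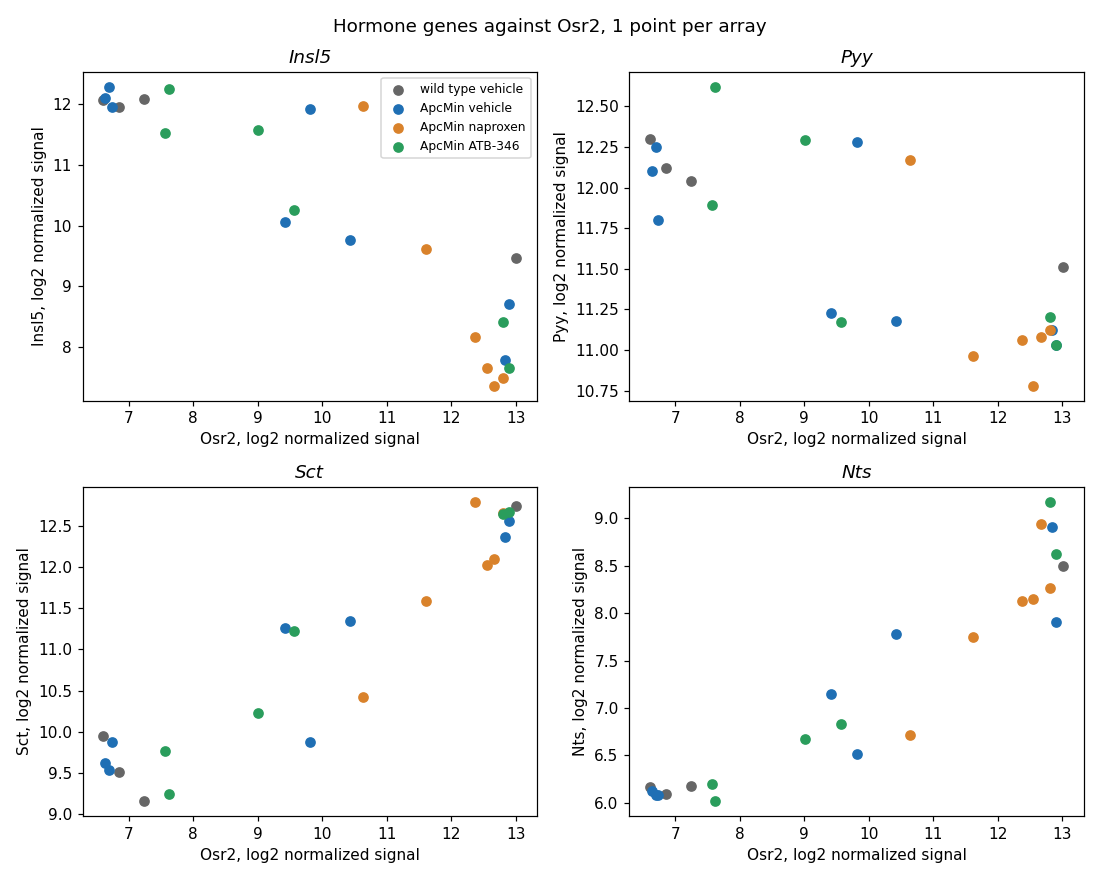
Signal of Insl5, Pyy, Sct and Nts (vertical axes, log2) against that of Osr2 (horizontal axes, log2), 1 point per array, coloured by group. Naproxen arrays lie between 10.64 and 12.81 in Osr2, and the 5 arrays of other groups at the right edge have Insl5 between 7.66 and 9.47.

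With the Osr2 level and the replicate set as terms in the fit, the naproxen differences were small or turned sign. Osr2 had an r of -0.90 with Insl5 and 0.94 with Sct, and no naproxen array read below 10.64 in Osr2. The term thus follows both the genes and the group, and can take up a group difference whatever its cause. A naproxen effect and what the Osr2 level tracks cannot be told apart in this fit. Insl5 differed from vehicle by -0.08 ± 0.51 (adjusted p = 0.985, limma). Sct differed by -0.34 ± 0.27 (adjusted p = 0.801), Nts by -0.15 ± 0.22, Tph1 by -0.26 ± 0.19 and Chgb by -0.23 ± 0.18. Chga differed by -0.44 ± 0.17 (unadjusted p = 0.0157, adjusted p = 0.61). Sst was at -0.18, Gcg at -0.02, Cck at -0.05 and Pyy at 0.05. Thus 9 of the 10 had the opposite sign to the fit on group means, Gcg, Cck and Pyy by small values, and none passed in either. These genes vary together, and the share of sign turns over all tested genes was not counted. For ATB-346 against naproxen the same terms left Insl5 at 0.13 ± 0.50, Pyy at 0.12 ± 0.22 and Sct at 0.21 ± 0.27, and for ApcMin against wild type they left Insl5 at -0.23 ± 0.53 and Sst at 0.25 ± 0.19.

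**Figure D5:**
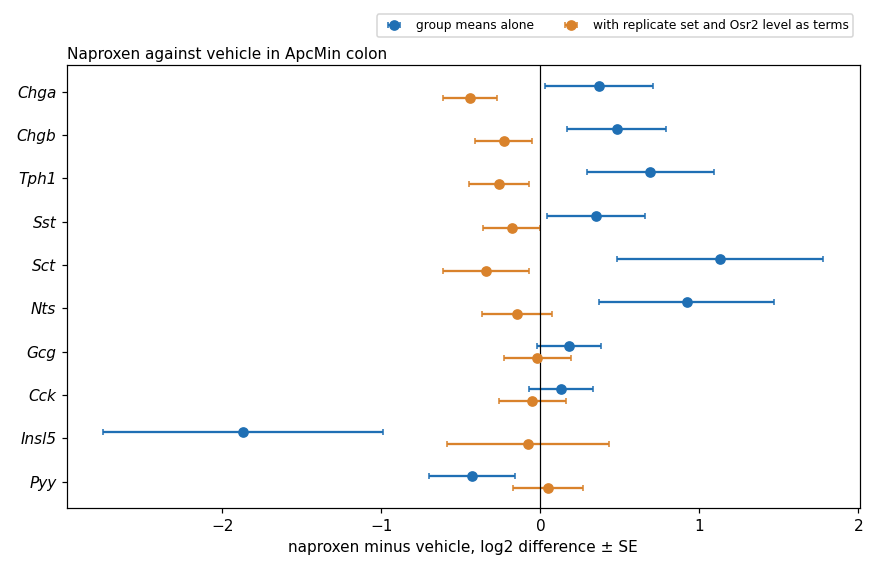
Naproxen minus vehicle in ApcMin colon for the 10 genes (horizontal axis, log2 difference with SE bars), from group means alone and with the replicate set and the Osr2 level as terms. Insl5 goes from -1.87 to -0.08 and Sct from 1.13 to -0.34. The Osr2 level follows both genes and is high on all naproxen arrays, so it is independent of neither the genes nor the group.

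Of 7 tested markers of enteric neurons, which share granule genes with enteroendocrine cells, 0 passed for naproxen against vehicle by limma, and all 7 differences were above 0 with a median of 0.23. The mean of the 7, of 16 in the list, was 7.82 to 8.31 on naproxen arrays, 7.59 to 7.97 on vehicle, 7.75 to 7.94 on ATB-346 and 7.63 to 7.91 on wild-type arrays. With that mean and the replicate set as terms, Insl5 differed by -0.48 ± 1.14 between naproxen and vehicle and Sct by -0.01 ± 0.84. The neuron mean was mostly higher on naproxen than on vehicle arrays, so this term stands in part for the group. It can take up a group difference whatever its cause. The mean of 18 pancreatic acinar markers reached 13.94 under vehicle and 10.02 under naproxen, against at most 7.56 in wild type and 7.29 under ATB-346. With it and the replicate set as terms, Insl5 differed by -1.27 ± 0.94 and Sct by 0.71 ± 0.71. That list holds Sycn, the target most like Insl5 across arrays, so it is not independent of Insl5. Of 7 tested colonocyte markers 0 passed for naproxen against vehicle, with 3 above 0 and a median of -0.06. Aqp8 differed by -1.78 ± 0.87 (adjusted p = 0.572) and the carbonic anhydrase gene Car4 by -0.84 ± 0.30 (unadjusted p = 0.00974, adjusted p = 0.535). These do not stand for the list. With group and replicate-set means removed, r with Insl5 was 0.91 for Aqp8 and 0.84 for Car4. It was -0.88 for Guca2b, -0.77 for Ceacam1, -0.71 for Krt20, -0.54 for Vil1 and -0.13 for Guca2a. The part of colonocyte markers in the results was not tested.

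Between replicate sets, Sst alone of the 10 passed. In ApcMin groups Sst was higher in replicates 5 to 8 by 0.57 ± 0.20 (95% interval 0.15 to 0.98, adjusted p = 0.0308, limma), beside 36.4% of all tested genes called, 14.4% as higher and 21.9% as lower. Its mean went from 10.24 to 10.71 under vehicle, from 10.59 to 11.29 under naproxen and from 10.35 to 10.92 under ATB-346. With the Osr2 level as a term it was 0.31 ± 0.13 (adjusted p = 0.0683). It also missed the threshold without vehicle array 1, 2 or 6, naproxen array 6 or ATB-346 array 5 (0.47 to 0.53, adjusted p = 0.0555 to 0.0838). Nts differed by 0.88 ± 0.42 (adjusted p = 0.109), and passed without ATB-346 array 1 (1.03, adjusted p = 0.0458). With the Osr2 level as a term Chga (-0.46 ± 0.14, adjusted p = 0.0153) and Tph1 (-0.54 ± 0.15, adjusted p = 0.00831) passed as lower in replicates 5 to 8. Without that term they were at -0.06 ± 0.28 and -0.06 ± 0.33. In the fit with the term, 3399 of the 9048 tested genes were called. Mean Osr2 went from 8.25 to 10.63 between the sets under vehicle, from 9.42 to 10.91 under ATB-346 and from 12.09 to 12.14 under naproxen. Its r was 0.82 with Chga and 0.87 with Tph1. The term thus follows both the genes and the set, and can bring out or take up a difference whatever its cause.

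Other genes of the enteroendocrine system were read from lists. Between replicate sets 36.4% of all tested genes were called, so calls given below between the sets are not read as traits of a list. Of 17 genes of granules and prohormone processing, 10 were tested and 0 passed in any group comparison by limma. Under naproxen 9 of the 10 were above vehicle, with a median difference of 0.22 beside 0.01 over all tested genes. Pam, the enzyme that amidates peptide hormones, was 1.08 ± 0.08 higher in replicates 5 to 8 (adjusted p = 1.58e-09). Of 18 enteroendocrine transcription factors 7 were tested and 0 passed between groups, and Rfx6, needed for hormone cell formation, was 0.22 ± 0.05 lower in replicates 5 to 8 (adjusted p = 0.00102). Of 12 other hormone genes 6 were tested and 0 passed between groups, 2 being higher in replicates 5 to 8: Vip (0.47 ± 0.08, adjusted p = 0.000127), a peptide gene mostly of enteric neurons, and Adm (0.27 ± 0.09, adjusted p = 0.0242), the adrenomedullin gene.

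In serotonin handling, 5 of 9 genes were tested and 0 passed between groups. The serotonin receptor channel gene Htr3a was 0.21 ± 0.07 lower in replicates 5 to 8 (adjusted p = 0.03, limma), where 36.4% of all tested genes were called. Of 14 nutrient and bile acid sensors 3 were tested and 0 passed between groups, and the glucose transporter gene Slc5a1 was 0.33 ± 0.10 higher in replicates 5 to 8 (adjusted p = 0.0174). Of 17 receptors for these hormones only Glp2r (8.19 to 8.78), Npy4r (7.57 to 8.33) and Npy1r (6.23 to 8.17) were bright enough to be tested, and 0 passed in any comparison. The receptor for INSL5, Rxfp4, was among those too dim.

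The genes most like each of the 10 across arrays were found from values with group and replicate-set means removed, over 24 arrays and 8512 targets. For Insl5 they were Sycn (r = 0.99), a syncollin gene, Ctse (r = 0.987), a cathepsin gene, and B3gnt5 (r = 0.985), a glycosyltransferase gene. Pyy was like Cyp2c67 (r = 0.972) and Tgm3 (r = 0.957), and Ppy, the pancreatic polypeptide gene, had r = 0.945 with it. Sct was most like Hkdc1 (r = 0.993), Ugt1a6a (r = 0.987) and Ugt2b36 (r = 0.986), of which the last pair are genes of glucuronosyltransferases. Nts was most like Hoxb6 (r = 0.979), Nags (r = 0.976) and Fam78a (r = 0.976).

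Only Chgb and Tph1 had another of the 10 among their 3 most similar targets. Chgb was most like Chga (r = 0.975), Tph1 (r = 0.974) and Ms4a5 (r = 0.959). Tph1 was most like Defb37 (r = 0.978), Chgb (r = 0.974) and Prkg2 (r = 0.971). Chga was most like Prodh (r = 0.98), Cyp2d26 (r = 0.977) and Sis (r = 0.977), the sucrase-isomaltase gene. Sst was most like Ms4a5 (r = 0.944), Lysmd4 (r = 0.939) and Calb2 (r = 0.938), a calretinin gene. Gcg was most like Elapor1 (r = 0.927), Rgs17 (r = 0.911) and Dpep1 (r = 0.905), and Cck like Vsig2 (r = 0.932), Cdx2 (r = 0.916) and Ddah1 (r = 0.914). The highest likeness of Gcg, Cck and Sst was thus under 0.95, and that of the other 7 above 0.97.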

How the data were processed

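RNA was isolated with a magnetic bead kit, DNase-treated and made into biotin-labelled cRNA, per the labels' protocols. The authors deposited a gene table of bead intensity for 18097 targets on a linear scale, made with GenomeStudio 1.7.0 without normalization on MouseRef-8 v2.0 arrays, per the file headers. Any background subtraction in that step is not given in the files or labels. A second deposited table holds the intensity of 25697 probes, from GenomeStudio per the submitters' processing notes, and served as an alternative and for single probes.

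Groups and replicate numbers came from the labels. Intensities were background-corrected (limma's normexp, offset 50), quantile-normalized and set to log2. Quantile normalization hides changes in total RNA, and with the offset, differences of dim genes come out too small. The 9048 targets with a mean above the median mean (6.54) were tested with lmFit and eBayes (limma 3.58.1, R 4.3.3). Group comparisons used 1 fit to all 24 arrays, and replicate sets 1 to 4 and 5 to 8 were compared over the 20 ApcMin arrays. A call needed an adjusted p (Benjamini-Hochberg) under 0.05 over all tested targets, two-sided. Relations between genes over arrays were tested by two-sided permutation with 100000 resamples (scipy 1.17.1), where 1e-05 is the smallest p that can be had. The code was tested on simulated data. The number of arrays limits the precision.

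Named were the 10 genes always; of each list the members called in a comparison, otherwise up to 4 of the highest mean; for each of the 10, the 3 tested targets most correlated with it; and Osr2, Pnlip, Cela2a, Hoxd13 and Hoxb13 (Cela2a ran from 6.01 to 14.90 and follows the acinar mean given). Krt8, Guca2a, Actg2, Aqp8, Car4, Slc26a3, Ces2a, Hoxa13, Ins2, Ppy, Sycn and Rxfp4 were named after their values were seen where they fall outside this rule. The same holds for Guca2b, Ceacam1, Krt20, Vil1, Rep15, Cdh1, Des, Hoxd10 and Hoxb6. Of the genes selected by likeness, 1 is left out of the text. The members and lists were chosen with earlier results of these data known. Alternatives were the normalization, the offset, the filter, the probe table, the replicate set or number as a block, each replicate set alone, 3 covariates, and leaving out each array.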

Additional observations from a re-analysis of the deposited data

Results flagged for a closer look

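In 7 of the 40 sets of arrays formed by the 10 genes and 4 groups, the highest or lowest array lay farther from its nearest neighbour than Dixon's 95% limit allows. Chance gives about 1 in 20 for independent sets. The 10 genes share the same arrays and vary together, so the 7 are not separate events and no excess over chance is read from them. Of these, 4 were on wild-type array 4: Chga at 9.53, Nts at 8.50 and Sst at 11.31, each the highest of its group, and Insl5 at 9.47, the lowest. That array also had the highest Osr2 signal of all, 13.01. Naproxen array 3 held 2, Pyy at 12.17 (highest) and Cck at 6.33 (lowest), and had the lowest Osr2 signal of the naproxen arrays, 10.64. The last was Gcg at 10.74 on ATB-346 array 4, the lowest of its group. The part of tissue position in these values was not tested.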

How the results depend on the processing

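No enteroendocrine gene was called in any of the 4 group comparisons under any alternative run. Of 905 alternative values for the 25 differences named in the report, 855 kept their direction and side of the threshold, 40 turned sign, 7 lost a call and 3 gained one. With the replicate set and Osr2 level as terms, naproxen against vehicle turned for Cck (-0.05), Chga (-0.44), Chgb (-0.23), Gcg (-0.02), Nts (-0.15), Pyy (0.05), Sct (-0.34), Sst (-0.18) and Tph1 (-0.26), ATB-346 against naproxen for Nts (0.18), Sct (0.21) and Tph1 (0.21), and ATB-346 against vehicle for Insl5 (0.05). With the set and neuron mean, naproxen against vehicle turned for Cck (-0.25), Chga (-0.17), Chgb (-0.14), Gcg (-0.22), Pyy (0.16), Sct (-0.01), Sst (-0.33) and Tph1 (-0.12), and ATB-346 against naproxen for Tph1 (0.09). With the set and acinar mean, Cck turned for naproxen (-0.02) and Insl5 for ATB-346 against vehicle (0.57). In ATB-346 against vehicle, Gcg was at -0.02 within replicates 1 to 4 and Insl5 at 0.11 within replicates 5 to 8; leaving out 1 array gave -0.69 to 0.23 for Insl5. Between replicate sets, leaving out 1 array gave -0.25 to 0.08 for Chga and -0.23 to 0.11 for Tph1, and leaving out both arrays with Ins2 signal, an alternative chosen after seeing the data, 0.07 and 0.11. The cause was not tested.

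Genes called for ATB-346 against vehicle were 0, but 28 with the replicate set as a block, 16 within replicates 1 to 4, 53 with the set and Osr2 level, 10 with the set and neuron mean, 1 with the set and acinar mean and 1 in the probe table. The replicate number as a block gave 6 calls there, none among the 10; same-numbered arrays of different groups correlated with r of -0.68 to 0.69 (median 0.24) and differently numbered ones with -0.73 to 0.81 (median -0.05). These r are not of the whole normalised arrays, among which every r was between 0.964 and 0.996. Same-numbered arrays were thus more alike at the median, but as not every pair had an r over 0.1, the numbers were not taken as pairs. That rule is strict, and does not show that the numbers mark no pairing. Leaving out 1 array gave 0 to 1 calls in each of ATB-346 against vehicle, naproxen against vehicle and ATB-346 against naproxen. Between replicate sets, 3290 genes became 1991 with the neuron mean, 3399 with the Osr2 level, and 2862 to 3337 with 1 array left out. Of the 10, the 1 called there became 2 with the Osr2 level, 0 with the neuron mean and 0 to 2 with 1 array left out. Dim signal limits Cck and Nts.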
